A study of Homo sapiens with 57 samples.

Results

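HSP90B1 (Entrez 7184), HSPA8 (Entrez 3312) and HSPB1 (Entrez 3315) are 3 of the 412 genes of a fixed expression panel, and were taken from every well by these identifiers. They encode the chaperone of the HSP90 family in the endoplasmic reticulum (ER), the constitutive cytosolic HSP70 and the small heat shock protein HSP27. RASL-seq was used, a method that ligates probe pairs lying side by side on each mRNA, amplifies the products by PCR and counts them by sequencing. The cells were HK-2, a widely used human cell line derived from proximal tubule epithelium. They were plated at 3000 cells per well and kept for 24 h with either an herb extract or DMSO. The herbs, Roucongrong, Yinyanghuo and Gusuibu, were given as extracts at 100 μg/mL to 3 wells each. Each herb had its own 16 DMSO wells, with 0.5% DMSO, so that the 57 wells form 3 sets. The labels give no DMSO content for the herb wells, so it is not known whether the solvent was matched. All wells came from this single line, and the labels do not say whether wells of a group were separate cultures, so that the p-values measure the spread between wells, which may be technical.

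Chaperones bind unfolded or unstable proteins and keep them from aggregating. HSP90B1 (also GRP94) works in the lumen of the ER, where integrins and Toll-like receptors are among the proteins that depend on it, and its gene is a classical target of the unfolded protein response. HSPA8 folds new proteins, strips clathrin from vesicles and hands client proteins such as steroid receptors to the cytosolic HSP90s, and it is expressed in unstressed cells. HSPB1 forms large oligomers that hold unfolded proteins without using ATP, binds the actin cytoskeleton and is phosphorylated downstream of the p38 kinase.

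The promoters of the 3 genes are shown because they carry the elements by which ER stress and heat shock genes are known. The 250 bases before the start of each gene were taken from RefSeq on GRCh38.p14, at chr12:103930160-103930409 (plus strand) for HSP90B1, chr11:123062137-123062386 (minus strand) for HSPA8 and chr7:76302423-76302672 (plus strand) for HSPB1, and are written 5′ to 3′ along the gene. Capitals mark the heat shock element cores (GAANNTTC and TTCNNGAA) and the ER stress element (CCAAT and CCACG with 9 bases between them), searched on both strands.
HSP90B1: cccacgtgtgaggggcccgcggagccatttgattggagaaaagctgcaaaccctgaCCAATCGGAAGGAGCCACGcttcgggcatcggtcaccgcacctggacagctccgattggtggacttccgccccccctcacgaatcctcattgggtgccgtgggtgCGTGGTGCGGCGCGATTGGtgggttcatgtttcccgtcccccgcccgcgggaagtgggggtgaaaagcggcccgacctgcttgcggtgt
HSPA8: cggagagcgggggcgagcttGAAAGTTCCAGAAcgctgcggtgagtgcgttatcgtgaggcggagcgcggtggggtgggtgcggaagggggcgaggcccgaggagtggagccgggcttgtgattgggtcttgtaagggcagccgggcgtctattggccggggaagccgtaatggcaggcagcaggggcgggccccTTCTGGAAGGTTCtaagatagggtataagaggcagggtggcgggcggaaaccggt
HSPB1: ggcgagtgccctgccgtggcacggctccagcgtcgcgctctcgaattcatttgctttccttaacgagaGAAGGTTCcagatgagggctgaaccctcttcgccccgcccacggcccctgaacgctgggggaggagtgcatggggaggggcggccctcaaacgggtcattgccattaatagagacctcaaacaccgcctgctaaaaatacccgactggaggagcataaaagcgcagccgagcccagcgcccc

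The HSP90B1 promoter held 2 ER stress elements, at 194 to 176 bases before the start and, on the opposite strand, at 89 to 71 bases. This element was in 0.0806% of the 27305 RefSeq promoters searched. HSP90B1 had no heat shock element core and 5 CCAAT boxes (CCAAT), 2 of which lie within the ER stress elements. A CCAAT box was in 33.0% of all promoters. The HSPA8 promoter held 2 cores of each heat shock type, overlapping in pairs at 230 to 218 and at 55 to 43 bases before the start, together with 2 CCAAT boxes. The HSPB1 promoter held 1 GAANNTTC core, at 182 to 175 bases, and no CCAAT box. The cores GAANNTTC and TTCNNGAA were in 5.85% and 6.72% of all promoters. The second type of ER stress element (ATTGG and CCACG with 1 base between them) was in 0.0513% of promoters and in none of these 3. These matches describe the sequence only.

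The 3 genes were measured at very different depths. A well held between 13581 and 75969 counts in all (median 35239). HSP90B1 was the 6th most abundant gene of the panel and took 2.88% to 5.68% of the reads of a well, with 414 to 3781 counts. HSPB1 took 0.424% to 1.48% (77 to 930 counts). HSPA8 took 0.0155% to 0.0831% (4 to 36 counts), and 13 of the 57 wells held fewer than 10 of its counts. All 57 wells were above the floor of 3 counts for each of the 3 genes. The counts of different genes depend on their probes, so levels are compared between wells and not between genes. The probe sequences were not used here, and reads from near-identical copies of HSPA8 and HSP90B1 could not be told apart. In DMSO wells, HSP90B1 varied by a coefficient of variation of 8.93% to 10.7% between the wells of a set, among the lowest of the panel (7th lowest in the Roucongrong set among 187 genes averaging 10 counts or more, whose median was 22.5%). HSPB1 varied by 14.2% to 25.2%. HSPA8 varied by 34.1% to 40.3%. Counting error alone, with no other difference between wells, would give 25.7% to 29.8% for HSPA8. It would give 5.19% to 6.59% for HSPB1 and 2.25% to 2.74% for HSP90B1, both below the spread seen. The ranking of HSP90B1 takes no account of depth, and genes with fewer counts carry more counting error. The reads carry no molecular identifiers, so such errors cover counting only.

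With Yinyanghuo, HSP90B1 fell in every well, and HSPA8 and HSPB1 did not pass the test. HSP90B1 had 30790, 29232 and 28633 CPM (counts scaled to a common library total, with TMM normalization within the set) in the Yinyanghuo wells. The DMSO wells of this set ranged from 41556 to 55271 CPM, with a median of 48412. All 3 treated wells lay below every DMSO well. The mean level was 29552 ± 1114 (SD, n = 3) CPM with the herb and 48028 ± 4337 (SD, n = 16) with DMSO. The log2 fold change (log2FC) was -0.70 ± 0.094 (SE; 95% interval -0.89 to -0.51), or 0.615 times the DMSO level, at an adjusted p of 7.4e-06 by edgeR. An adjusted p under 0.05 was reached by 7.5% of the genes. By p, HSP90B1 ranked 4th of the 400 genes tested. The two-sided exact permutation test over the 969 choices of 3 wells gave p = 0.00103, the smallest it allows. DEGs were called at a fold change above 1.5 or below 0.67 with p under 0.05 before adjustment. HSP90B1 was the single DEG among the 3 genes here, beside 60 of all 400 genes (15%), of which 29 were lower (7.25%) and 31 higher (7.75%). With RLE normalization the split was 23 lower and 40 higher. It was called in each fit that left out 1 well. In bulk RNA of a well, fewer cells and less RNA per cell cannot be told apart, and every value is relative to the rest of the panel. Genes listed as kidney epithelial markers were lower in part of these wells, and their part in the HSP90B1 result was not tested. Of 3 listed markers in the panel, LCN2 was called lower (log2FC -0.99, edgeR adjusted p = 0.00282), VIM had -0.52 (edgeR adjusted p = 0.0702) and CDH2 -0.10 (edgeR adjusted p = 0.699). Their summed level was 19218 to 39284 CPM (without TMM) with Yinyanghuo and 34297 to 45676 with DMSO, with overlap.

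HSPA8 had 6, 8 and 18 counts in the Yinyanghuo wells, or 286, 565 and 507 CPM. Its DMSO wells ranged from 198 to 765 CPM (median 438), so that all 3 treated wells lay within their range. The log2FC was -0.043 ± 0.35 (SE), and its sign depended on the normalization. The 95% interval reached from -0.77 to 0.68. HSPB1 had 13991, 11015 and 13528 CPM with Yinyanghuo, within the DMSO range of 8108 to 14126 (median 11128). Its log2FC was 0.19 ± 0.15 (SE; edgeR adjusted p = 0.510). The ratio of HSP90B1 to HSPB1 counts, which does not depend on the scaling of a well, was 2.12 to 2.65 in the 3 Yinyanghuo wells and 3.33 to 6.82 in their controls, with no overlap.

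With Gusuibu, HSPB1 was lower than in DMSO, at the edge of the DEG criteria. It had 4108, 4481 and 5157 CPM in the Gusuibu wells, from 77, 175 and 242 counts. The DMSO wells of the set ranged from 5222 to 9575 CPM, with a median of 6996. All 3 treated wells lay below every DMSO well, the highest of them by a small margin. The mean level was 4582 ± 532 (SD, n = 3) CPM with the herb and 6884 ± 975 (SD, n = 16) with DMSO. The log2FC was -0.58 ± 0.13 (SE; 95% interval -0.85 to -0.31) at an adjusted p of 0.0120 by edgeR, and 5.22% of the genes had an adjusted p under 0.05. HSPB1 ranked 4th of 402 genes by p, and the exact permutation test gave p = 0.00103, the smallest it allows. The fold change of 0.669 lies just inside the criterion of 0.67. HSPB1 was the single DEG of the 3 genes with Gusuibu, beside 38 of all 402 genes (9.45%), of which 7 were lower (1.74%) and 31 higher (7.71%). With RLE normalization or the total count alone the split was 3 lower and 34 higher.

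The fold change of HSPB1 missed the criterion with RLE normalization (-0.52, edgeR adjusted p = 0.0129), with DESeq2 (-0.52, adjusted p = 0.00439) and with a filter on low counts (-0.53, edgeR adjusted p = 0.0143). It also missed the criterion without the first Gusuibu well (-0.52, edgeR adjusted p = 0.0481) and without the second (-0.56, edgeR adjusted p = 0.103). Of 19 genes listed as kidney epithelial markers, the 3 in the panel (CDH2, VIM and LCN2) moved the same way. Their part in the HSPB1 result was not tested. CDH2 and VIM are also counted as mesenchymal genes, so these values do not measure epithelial identity alone. The summed level of the 3 was between 30492 and 36137 CPM (without TMM) for Gusuibu and between 36894 and 46100 for DMSO, with no overlap. None of these 3 was at 0. CDH2 (N-cadherin) and VIM (vimentin), named here after their values were seen, had log2FCs of -0.58 (edgeR adjusted p = 0.00239) and -0.40 (edgeR adjusted p = 0.0187).

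HSP90B1 had 43912, 36998 and 38656 CPM with Gusuibu, all below the DMSO median of 44915 and within the DMSO range of 36357 to 52143. Its log2FC was -0.18 ± 0.091 (SE; edgeR adjusted p = 0.321, exact permutation p = 0.0599). HSPA8 had 267, 589 and 511 CPM, from 5, 23 and 24 counts. The first well, with the lowest total of the 3 (18177), lay below the DMSO range of 299 to 772 CPM. The log2FC was -0.12 ± 0.31 (SE; 95% interval -0.75 to 0.50).

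With Roucongrong, HSPA8 was called higher on unadjusted p alone. It had 810, 499 and 692 CPM in the treated wells, from 26, 20 and 25 counts, for which exact 95% Poisson intervals reach from 17.0 to 38.1, from 12.2 to 30.9 and from 16.2 to 36.9. The DMSO wells ranged from 160 to 703 CPM, with a median of 339. All 3 treated wells were above this median, 1 was above every DMSO well, and 5 DMSO wells were at or above the lowest treated well. The mean level was 667 ± 157 (SD, n = 3) CPM with the herb and 396 ± 164 (SD, n = 16) with DMSO. The log2FC was 0.73 ± 0.32 (SE; 95% interval 0.07 to 1.39), with an edgeR p of 0.0310 before and 0.271 after adjustment. An adjusted p under 0.05 was reached by 2.99% of the genes. The exact permutation test gave p = 0.0361. HSPA8 was the single DEG of the 3 genes with Roucongrong, beside 41 of all 402 genes (10.2%), of which 29 were higher (7.21%) and 12 lower (2.99%). HSPA8 was not called without the first well (log2FC 0.57), without the third (0.69) or with the other sets' DMSO wells as controls (0.50).

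HSP90B1 had 39993, 40261 and 48201 CPM with Roucongrong. The first pair of wells lay just below the DMSO range of 40482 to 56431 and the third above the median of 47077. The log2FC was -0.15 ± 0.096 (SE; edgeR adjusted p = 0.443, exact permutation p = 0.116). HSPB1 had 13767, 10452 and 10687 CPM, all within the DMSO range of 6041 to 14625 and above the median of 10198. Its log2FC was 0.25 ± 0.18 (SE; edgeR adjusted p = 0.515).

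**Figure D1:**
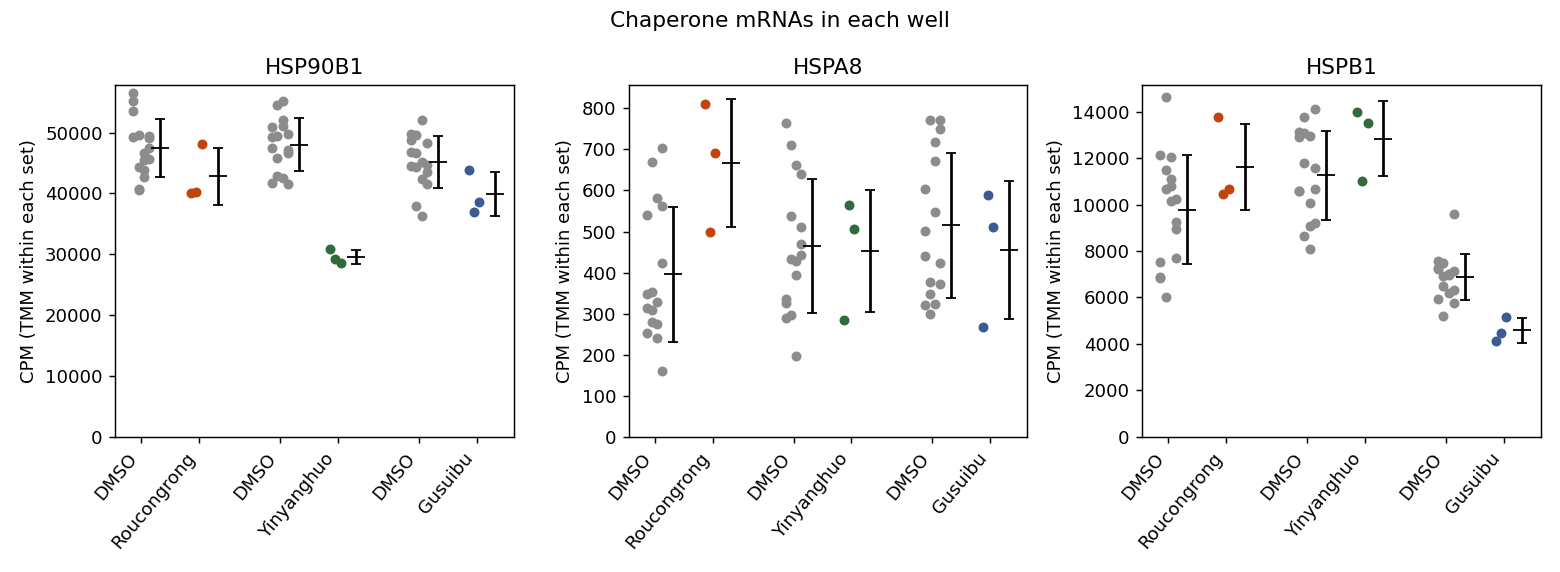
CPM (vertical axis, linear from 0) of HSP90B1, HSPA8 and HSPB1 in each of the 57 wells, with DMSO wells in grey and treated wells in colour; bars give mean ± SD. The 3 Yinyanghuo wells lie below every DMSO well for HSP90B1, the 3 Gusuibu wells lie below every DMSO well of their set for HSPB1, and the groups overlap for HSPA8.

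Whether the herbs differed in their effect was tested in one edgeR model of the 57 wells, as the difference between 2 herb effects, each against its own DMSO wells. The effect on HSP90B1 was lower with Yinyanghuo than with Roucongrong by 0.55 on the log2 scale (95% interval 0.28 to 0.82, edgeR adjusted p = 0.00806). Against Gusuibu the difference for HSP90B1 was -0.53 (95% interval -0.80 to -0.26, edgeR adjusted p = 0.00926). With upper quartile scaling both differences missed an adjusted p of 0.05 (edgeR adjusted p of 0.0633 and 0.317). So did the first without the third Roucongrong well (0.39, edgeR adjusted p = 0.130) and the second without the first Gusuibu well (-0.34, edgeR adjusted p = 0.217). The effects of Roucongrong and Gusuibu on HSP90B1 differed by 0.017 (95% interval -0.25 to 0.29). For HSPB1, Gusuibu lay 0.82 below Roucongrong (edgeR adjusted p = 0.0383) and 0.77 below Yinyanghuo (edgeR adjusted p = 0.0422), though an adjusted p of 0.05 was missed in 3 and 4 of the 6 fits, respectively, that left out 1 treated well, while Roucongrong and Yinyanghuo differed by 0.045 (95% interval -0.43 to 0.52). Of all 412 genes, 6.8% differed between Roucongrong and Yinyanghuo at an adjusted p under 0.05, 5.58% between Yinyanghuo and Gusuibu and 6.55% between Roucongrong and Gusuibu. For HSPA8 no difference passed, although the intervals are wide: Roucongrong minus Gusuibu was 0.87 (95% interval -0.0027 to 1.75) and Roucongrong minus Yinyanghuo 0.77 (95% interval -0.16 to 1.69).

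The DMSO wells themselves differed between sets. HSPB1 was lower in the DMSO wells of the Gusuibu set, by 0.61 on the log2 scale against those of the Roucongrong set (edgeR adjusted p = 7.4e-07) and by 0.71 against those of the Yinyanghuo set (edgeR adjusted p = 6.9e-08). Both differences were larger in size than the log2FC of -0.58 with Gusuibu. An overall edgeR test across the 3 sets gave an adjusted p of 1.8e-08 for HSPB1, 0.0280 for HSP90B1 and 0.425 for HSPA8, beside 26.2% of all genes with an adjusted p under 0.05. For HSP90B1 the difference was 0.17 between the Roucongrong and Gusuibu sets (edgeR adjusted p = 0.00942). The overall HSP90B1 test passed an adjusted p of 0.05 in only 2 of 6 other settings. With upper quartile scaling it gave an edgeR adjusted p of 0.496. Herb and set cannot be told apart in any comparison across sets. With the other sets' DMSO wells as controls, HSPB1 with Gusuibu had a log2FC of -1.22 (edgeR adjusted p = 6.8e-05).

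With all wells scaled together, HSPB1 ran from 12710 ± 1823 (SD, n = 3) CPM with Yinyanghuo over 12244 ± 1858 (SD, n = 3) with Roucongrong to 10998 ± 1959 (SD, n = 16) and 10232 ± 2581 (SD, n = 16) in their DMSO wells. These 4 neighbouring levels did not differ beyond their spread (edgeR adjusted p of 0.521 or more). A step down followed to the Gusuibu set's DMSO wells, at 6724 ± 957 (SD, n = 16) CPM (edgeR adjusted p = 4.2e-07), and the last step, to 4538 ± 377 (SD, n = 3) with Gusuibu, had an edgeR adjusted p of 0.104 in this model. For HSP90B1 the order began with 49628 ± 5324 (SD, n = 16) CPM in the DMSO wells of the Roucongrong set and 46827 ± 4183 (SD, n = 16) in those of the Yinyanghuo set. It went on with 45228 ± 6705 (SD, n = 3) with Roucongrong, 44093 ± 3993 (SD, n = 16) in the DMSO wells of the Gusuibu set and 39765 ± 6221 (SD, n = 3) with Gusuibu. Neighbours in this order did not differ beyond their spread (edgeR adjusted p of 0.311 or more). The last step, to 29194 ± 1346 (SD, n = 3) CPM with Yinyanghuo, did (edgeR adjusted p = 0.0161). HSPA8 ran from 704 ± 173 (SD, n = 3) CPM with Roucongrong to 411 ± 166 (SD, n = 16) in its DMSO wells, the highest and the lowest of its 6 groups, and no neighbours differed beyond their spread (edgeR adjusted p of 0.507 or more).

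The panel held 6 of 43 listed chaperones and co-chaperones. Beside the 3 genes these were HSP90AA1 and HSP90AB1, the cytosolic HSP90s that take clients from HSPA8, and DNAJC3, a co-chaperone of the ER. None of these 3 was called in any herb. HSP90AA1 had log2FCs of 0.65 with Roucongrong, 0.46 with Yinyanghuo and -0.55 with Gusuibu (edgeR adjusted p from 0.312 to 0.412). HSP90AB1 had 0.38, 0.29 and -0.39 in the same order (edgeR adjusted p from 0.433 to 0.515). The difference between Roucongrong and Gusuibu was 1.20 for HSP90AA1 (edgeR adjusted p = 0.104) and 0.78 for HSP90AB1 (edgeR adjusted p = 0.163), neither past 0.05. DNAJC3 had 0.39 with Yinyanghuo (edgeR adjusted p = 0.279), where HSP90B1 fell. The median log2FC of the 6 genes was 0.31 with Roucongrong, 0.24 with Yinyanghuo and -0.29 with Gusuibu, beside -0.04, -0.13 and 0.04 for all genes tested.

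**Figure D2:**
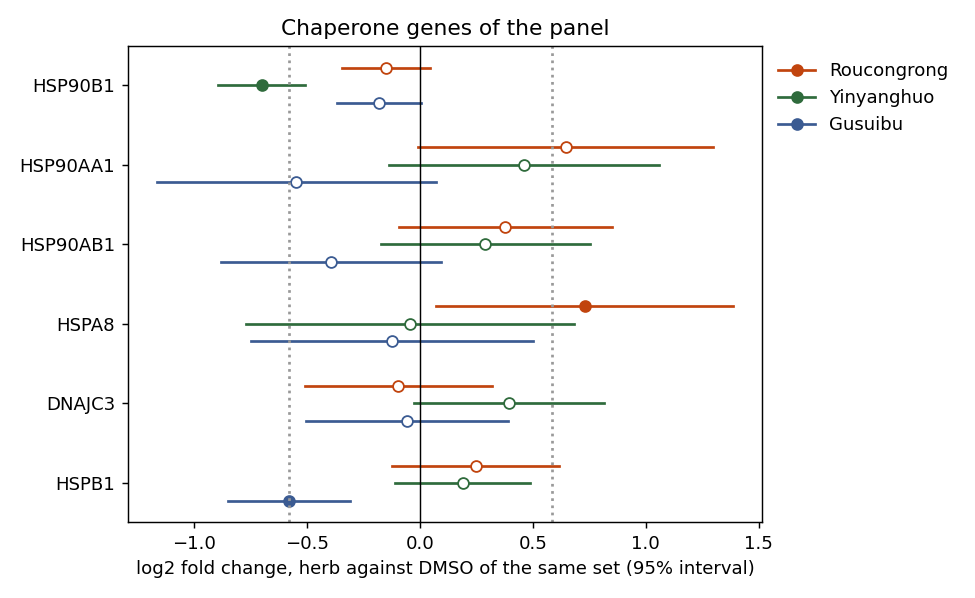
Log2FC (horizontal axis) of the 6 chaperone genes of the panel with each herb against the DMSO wells of its set, with 95% intervals; filled points are DEGs, and dotted lines mark fold changes of 0.67 and 1.5. HSP90B1 with Yinyanghuo, HSPA8 with Roucongrong and HSPB1 with Gusuibu are the filled points, and the last lies on the dotted line.

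Of 11 listed genes of the unfolded protein and integrated stress response, 2 were in the panel. TRIB3, a pseudokinase induced by ATF4 and CHOP, had log2FCs of 0.17, -0.11 and -0.01 with Roucongrong, Yinyanghuo and Gusuibu, none of them called. DDIT3, which encodes CHOP, had no more than 3 counts in any well. HSPA5, the ER chaperone that usually moves with HSP90B1, was not analysed here. Of 26 listed integrins, 6 were in the panel. With Yinyanghuo, 1 was lower, 1 higher and 4 were not called, beside 7.25% of all genes called lower and 7.75% higher. ITGAV (integrin alpha V) had 35, 11 and 39 counts in the Yinyanghuo wells and 44 to 161 in their controls. Its log2FC was -1.18 (edgeR adjusted p = 0.00156), in the wells where HSP90B1 fell as well. ITGB2 had 18, 2 and 25 counts against 3 to 22 and was called higher with an adjusted p of 0.187 (edgeR). With Gusuibu no integrin was called, and ITGB1, named after its values were seen, had -0.38 (edgeR adjusted p = 0.0282). With Roucongrong none was called.

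The panel held 6 of 10 listed p38 and MAPKAP kinases that act upstream of HSPB1. None was called in any herb. With Gusuibu, where HSPB1 was lower, their log2FCs ran from -0.21 (MAPK13) to 0.25 (MAPK11), with a median of 0.05. Of 7 steroid and aryl hydrocarbon receptors, clients of the HSP70 and HSP90 cycle, 5 were in the panel, and at most 1 of them reached a mean count of 10 in a set. ESR2 was called lower with Roucongrong on 1, 2 and 0 counts, against 0 to 11 in its DMSO wells (median 6). Its log2FC was -2.12 (edgeR adjusted p = 0.251). ESR1 was called higher with Gusuibu on 0, 2 and 2 counts, against 0 to 1 (edgeR adjusted p = 0.0797). All these treated wells were at or below the floor of 3 counts, so the size of either fold change is uncertain. Of 14 redox stress genes 4 were in the panel. HMOX1 (heme oxygenase) was called higher with Roucongrong and with Yinyanghuo, SOD2 lower with Roucongrong and TXNIP higher with Gusuibu. Of all genes, 10.2%, 15% and 9.45% were called with Roucongrong, Yinyanghuo and Gusuibu. TXN, named after its values were seen, had a log2FC of 0.55 with Yinyanghuo (edgeR adjusted p = 5.1e-06), short of the fold criterion. With Roucongrong and Gusuibu it had 0.18 and -0.19 (edgeR adjusted p of 0.251 and 0.221).

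A list of 18 genes of IL-4 and IL-13 signalling was drawn from the panel itself, with earlier results of these data known. HSP90B1 and HSPA8 stand under this pathway in some databases. The calls of the list are given as a description and are no test of the pathway. With Roucongrong 1 was called higher (HMOX1) and 2 lower (BCL2L1 and CDKN1A). With Yinyanghuo 3 were called higher (HMOX1, FOS and CDKN1A) and 3 lower, FN1 and LCN2 among them. With Gusuibu 2 were called higher (PIM1 and ANXA1) and 1 lower (STAT3). The calls were thus 3, 6 and 3 of 18, beside 10.2%, 15% and 9.45% of all genes tested. The median log2FC of the list was -0.06, 0.27 and 0.20 in this order, beside -0.04, -0.13 and 0.04 for all genes tested.

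Among the 48 DMSO wells, centred on the mean of their set, the gene most like HSP90B1 in log2 CPM was CALM3 (Pearson r = 0.92), which encodes calmodulin. It was followed by FUCA2 (0.63), a secreted fucosidase, and GNG5 (0.56), a G protein subunit. These were the highest of 179 genes averaging 10 counts or more. Within the Roucongrong, Yinyanghuo and Gusuibu sets, the correlation with CALM3 was 0.95, 0.91 and 0.90 over 16 wells each. The points share their library, and both genes are among the most abundant of the panel, so that they also share the total they are divided by. The ratio of HSP90B1 to CALM3 counts does not depend on that total. It varied by 3.82%, 3.76% and 4.78% between the DMSO wells of the 3 sets, less than HSP90B1 itself. CALM3 was picked for its correlation with HSP90B1 over these same wells, so this smaller spread follows from the choice and is no separate result. With Yinyanghuo it was 0.294, 0.258 and 0.308, below the DMSO range of 0.343 to 0.387. The third of these wells lay within the DMSO range of the Roucongrong set, 0.300 to 0.337, which does not overlap that of the Yinyanghuo set. CALM3 had a log2FC of -0.36 with Yinyanghuo (edgeR adjusted p = 0.00603) and was no DEG. With Gusuibu the ratio was 0.345, 0.375 and 0.369, within the DMSO range of 0.317 to 0.377. With Roucongrong it was 0.348, 0.310 and 0.336, and the first of these wells lay above the highest DMSO well, at 0.337.

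**Figure D3:**
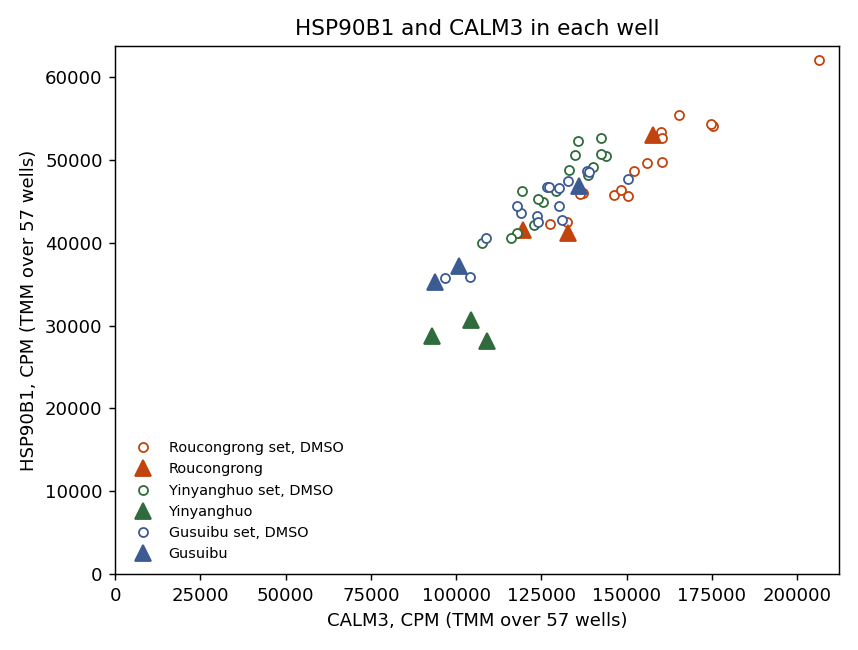
HSP90B1 against CALM3 (CPM of the 57 wells scaled together, both axes linear from 0); open circles are DMSO wells and triangles treated wells, coloured by set. Both genes ran together among the DMSO wells of each set (r of 0.90 to 0.95 within sets), and the 3 Yinyanghuo wells lie below the DMSO wells of their own set in the ratio of HSP90B1 to CALM3.

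Among the genes most like HSPB1 were YWHAQ (r = 0.71), a 14-3-3 protein, and PRKCSH (0.69), the beta subunit of glucosidase II in the ER. The lowest was PIK3R1 (-0.65), a subunit of PI3 kinase, named after its values were seen. HSPB1 also ran with the depth of the well, with r = 0.57, 0.62 and 0.15 between log2 CPM and log2 total count in the DMSO wells of the Roucongrong, Yinyanghuo and Gusuibu sets (16 wells each). In the Gusuibu wells, HSPB1 was 4108, 4481 and 5157 CPM at totals of 18177, 36206 and 46019. The DMSO well nearest in total to the first of them, with 21006 counts, had 7028 CPM. With log2 total count as a covariate, an alternative chosen after seeing the data, the log2FC of HSPB1 with Gusuibu was -0.56 (edgeR adjusted p = 0.0145), just short of the criterion. Under the same covariate HSPB1 stood at 0.39 with Roucongrong (edgeR adjusted p = 0.251) and at 0.33 with Yinyanghuo (edgeR adjusted p = 0.186).

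**Figure D4:**
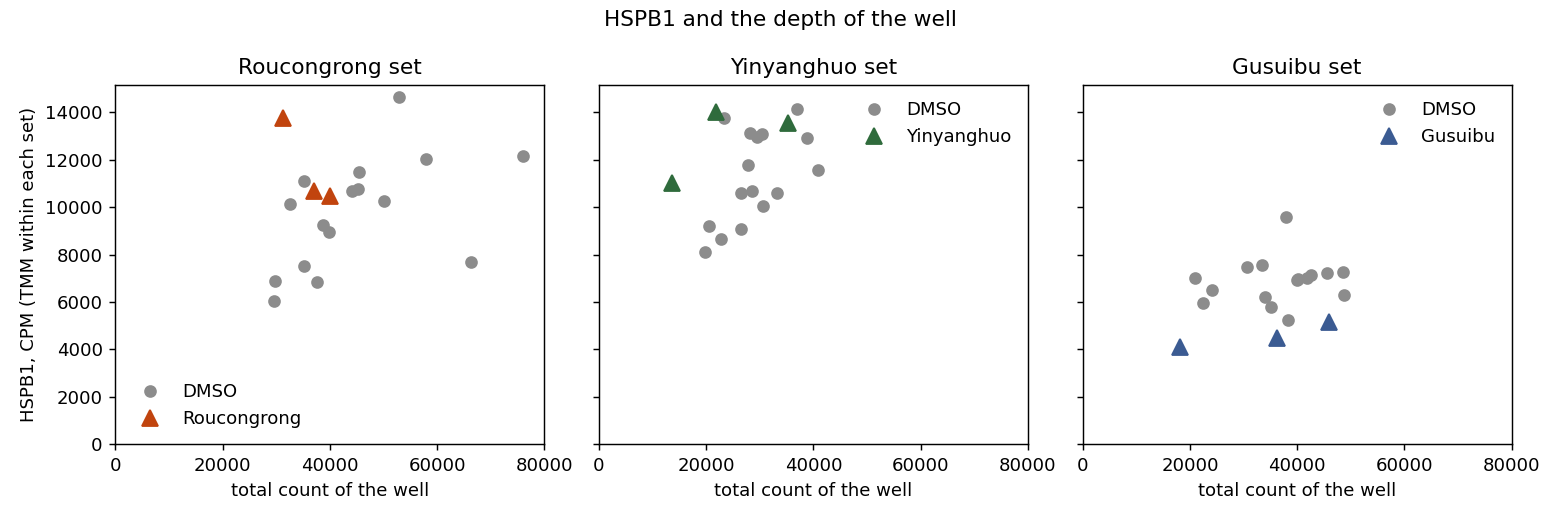
HSPB1 (CPM within each set, vertical axis) against the total count of the well (horizontal axis), with DMSO wells in grey and treated wells as triangles. The Gusuibu wells lie below every DMSO well of their set, and the DMSO wells of the Gusuibu set are lower in median (6996 CPM) than those of the Roucongrong (10198) and Yinyanghuo (11128) sets, with overlapping ranges.

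YWHAQ and PRKCSH, which ran with HSPB1 in the DMSO wells, missed an adjusted p of 0.05 with Gusuibu. PRKCSH had -0.34 on the log2 scale (edgeR adjusted p = 0.180) and YWHAQ -0.21 (edgeR adjusted p = 0.520). With Roucongrong YWHAQ rose by 0.59 (edgeR adjusted p = 0.0245), where HSPB1 stood at 0.25. The genes most like HSPA8 had weak correlations, with SMAD3 at 0.39, YWHAZ at 0.29 and NR1H4 at 0.29, and in counts this low they carry little. Between the 3 genes, r was -0.31 for HSP90B1 and HSPA8, 0.01 for HSP90B1 and HSPB1 and -0.02 for HSPA8 and HSPB1. The first was -0.30, -0.55 and -0.09 within the Roucongrong, Yinyanghuo and Gusuibu sets. Counting error weakens any correlation with HSPA8, so these values cannot show whether it runs with the other genes.

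Markers of other cell types were low in all groups. Endothelial markers (CDH5 and KDR, 2 of 7 listed) summed to 1 to 41 counts per well, leukocyte markers (ITGAM, ITGB2, ITGAX and CD36, 4 of 9) to 1 to 25, and COL1A2, the 1 fibroblast marker of 7 in the panel, to 0 or 1. KDR was called higher with Gusuibu on 4, 40 and 15 counts, and its part in the HSPB1 result was not tested. ITGB2, here as a leukocyte marker, was called higher with Yinyanghuo (log2FC 0.98), although its second well held 2 counts, and its part in the HSP90B1 result was not tested. The summed leukocyte markers ran from 147 to 821 CPM (without TMM) with Yinyanghuo and from 147 to 770 with DMSO, and ITGAM, ITGAX and CD36 were listed at 0 in all 3 Yinyanghuo wells. Of the genes listed as kidney epithelial markers, CDH2, VIM and LCN2 were measured in every well, while the proximal tubule transporters on the list were not analysed here.

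**Figure D5:**
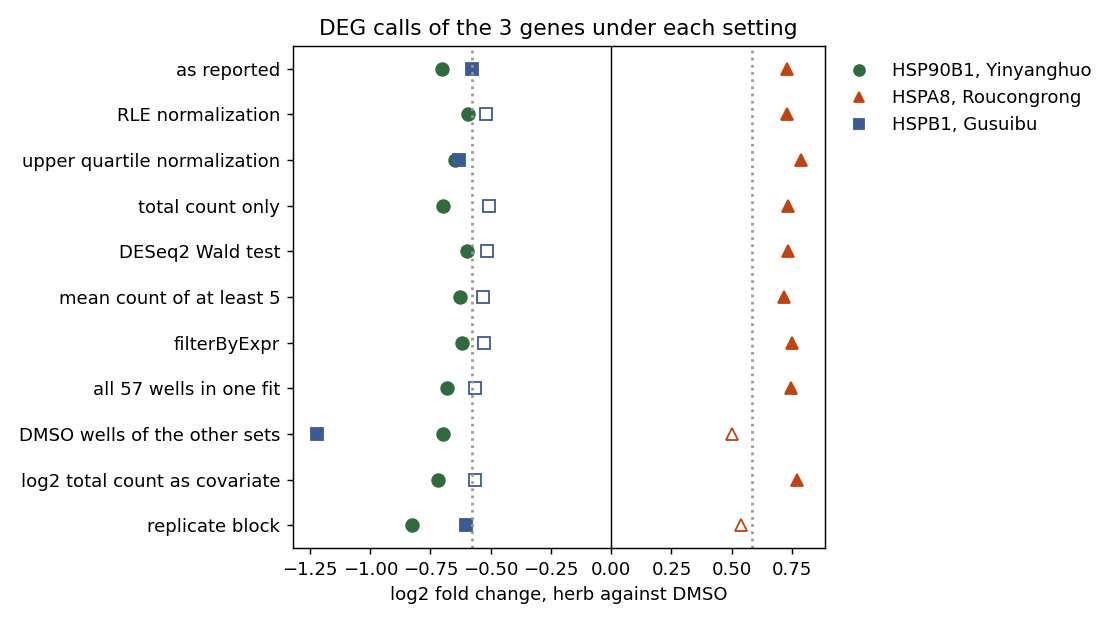
Log2 fold change (horizontal axis) of HSP90B1 with Yinyanghuo, HSPA8 with Roucongrong and HSPB1 with Gusuibu under each setting. The row "as reported" is the main edgeR fit used in the text above, not a value of the original study. Filled points are DEGs, and dotted lines mark fold changes of 0.67 and 1.5. HSP90B1 was called under all 10 other settings, HSPA8 under 8 and HSPB1 under 3, with HSPB1 just short of the dotted line in most of the others.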

How the data were processed

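The authors deposited 1 file of unnormalized read counts per gene for each of 57 wells, after removing reads with too many mismatches. The submitters' processing notes name Bowtie2 2.2.4 and DESeq2 1.22.1, and the genome build is not given in the sources used here. Groups and replicate numbers came from the well labels, and no well was left out. No 2 wells held identical counts.

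The 3 wells of an herb were set against the 16 DMSO wells of its set with edgeR 4.0.16 (R 4.3.3), quasi-likelihood F test, TMM, over all genes with a nonzero total, with Benjamini-Hochberg adjustment over those genes. Herb effects were compared as interaction contrasts, and DMSO wells between sets, in models of the same kind. The exact permutation test used the mean log2 CPM (prior count 2). Scripts were tested on simulated data. The members and gene lists were chosen with earlier results of these data known. Named genes are the 3 members, for each the 3 genes with the highest correlation over the DMSO wells, and list members called in at least 1 herb; others are said to be chosen after their values were seen, and 1 gene that the rule names is not reported here. The main fits did not pair wells by replicate number, and the labels do not say what a shared number means. Same-numbered treated and DMSO wells had correlations of -0.53 to 0.47, over 0.1 in 3 of 9 pairs. Alternatives were RLE, upper quartile and total-count scaling, DESeq2 1.42.0, a mean count of at least 5, filterByExpr, each well left out, all wells in one fit, other sets' DMSO wells and a replicate block; a depth covariate was added after seeing the data. Promoters were matched by symbol (3 of 3) in RefSeq tables. Figures were drawn with matplotlib 3.10.9.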

Additional observations from a re-analysis of the deposited data

Results flagged for a closer look

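Some effects differed between herbs in the test of the difference itself (edgeR interaction, adjusted over 412 genes). For HSP90B1, the Roucongrong effect exceeded the Yinyanghuo effect by 0.55 on the log2 scale (edgeR adjusted p = 0.00806), and the Yinyanghuo effect differed from the Gusuibu effect by -0.53 (edgeR adjusted p = 0.00926). For HSPB1, the Roucongrong effect exceeded the Gusuibu effect by 0.82 (edgeR adjusted p = 0.0383), and the Yinyanghuo effect exceeded the Gusuibu effect by 0.77 (edgeR adjusted p = 0.0422). With 1 treated well dropped at a time, the HSPB1 differences passed in 3 and 2 of 6 cases and those of HSP90B1 in 5 of 6 each, and the latter missed 0.05 with upper quartile scaling (edgeR adjusted p of 0.0633 and 0.317). Between sets, DMSO wells differed too in HSPB1. In HSP90B1 they differed under the main setting and 2 of 6 others. Herb and set therefore cannot be told apart.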

How the results depend on the processing

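With each choice changed in turn, HSP90B1 with Yinyanghuo stayed a DEG under all 10 other settings (log2FC -0.82 to -0.59) and in all fits that left out 1 well (-0.76 to -0.68). Its adjusted p was under 0.05 except with the replicate block (0.131). HSPA8 with Roucongrong stopped being a DEG against the other sets' DMSO wells (0.50) and with the block (0.54), and ranged from 0.57 to 0.91 without 1 treated well. HSPB1 with Gusuibu missed the fold criterion with RLE (-0.52), the total count alone (-0.51), DESeq2 (-0.52), a mean count of at least 5 (-0.53), filterByExpr (-0.53), the depth covariate (-0.56) and all 57 wells in one fit (-0.56, edgeR adjusted p = 0.104). Its range without 1 treated well was -0.68 to -0.52, and without 1 DMSO well -0.59 to -0.53, where 6 of 16 fits called it (not those without DMSO wells 1, 2, 4, 5, 7, 8, 9, 12, 15 or 16, all at an edgeR adjusted p of 0.0181 or less). With the block its adjusted p was 0.157 (edgeR).

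HSPA8 with Yinyanghuo, near 0, turned positive with RLE (0.049), upper quartile (0.014), DESeq2 (0.045), a mean count of at least 5 (0.022), filterByExpr (0.025) and the replicate block (0.22). Leaving out 1 treated well gave -0.18 to 0.19 (positive without the first), and 1 DMSO well -0.13 to 0.028 (positive without wells 1 or 14). With Gusuibu it was 0.11 against the other sets' DMSO wells and -0.31 to 0.060 without 1 treated well (positive without the first).

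Among herb differences, HSP90B1 with upper quartile scaling was 0.55 for Roucongrong minus Yinyanghuo (edgeR adjusted p = 0.0633) and -0.37 for Yinyanghuo minus Gusuibu (edgeR adjusted p = 0.317). Without 1 treated well these ranged from 0.39 to 0.60, the lowest without the third Roucongrong well (edgeR adjusted p = 0.130), and from -0.58 to -0.34, the last without the first Gusuibu well (edgeR adjusted p = 0.217). HSPB1, Yinyanghuo minus Gusuibu, was 0.70 with the total count alone (edgeR adjusted p = 0.0663) and 0.70 to 0.88 without 1 treated well, under an adjusted p of 0.05 in 2 of 6 fits (not without Yinyanghuo wells 1 or 3 or Gusuibu wells 2 or 3). For Roucongrong minus Gusuibu it was 0.69 to 0.89, under an adjusted p of 0.05 in 3 of 6 (not without Roucongrong well 1 or Gusuibu wells 1 or 2). Differences near 0 changed sign: HSPB1, Roucongrong minus Yinyanghuo, with RLE (-0.013), a mean count of at least 5 (-0.023) and DESeq2 (-0.014), with -0.081 to 0.12 without 1 well; HSP90B1, Roucongrong minus Gusuibu, with RLE (-0.0095), the total count alone (-0.040) and DESeq2 (-0.0053), with -0.074 to 0.15 without 1 well. HSPA8, Yinyanghuo minus Gusuibu, ranged from -0.050 to 0.33. The F of HSP90B1 between DMSO sets was 4.57 with RLE (edgeR adjusted p = 0.0530), 1.13 with upper quartile (0.496), 3.63 with the total count alone (0.0990) and 3.78 with filterByExpr (0.0513).

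DEG counts with Roucongrong were 26 with DESeq2, 21 with a mean count of at least 5, 19 with filterByExpr, 26 with the block and 24 (without the third) to 54 without 1 treated well. With Yinyanghuo the block gave 37, and leaving out 1 well 46 to 72. With Gusuibu they were 21, 19, 20 and 22 in the same order, 24 with all 57 wells, and 27 to 45 without 1 well. The labels do not say what wells of the same number share, so what a call lost under the block means was not tested. No scaling moved the median log2FC of all genes by more than 0.0797. The causes of these changes were not tested. The depth limits HSPA8 most, where 1 well can hold as few as 4 counts.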
